A study of Mus musculus with 9 samples.

Results

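Tetraploid p53-/- mouse embryonic cells were set against diploid p53-/- mouse embryonic cells on one-colour expression arrays. The comparison held 3 tetraploid clones and 3 diploid clones, chosen by the ploidy given in the labels, 6 of the 9 arrays of the series. The other 3 arrays, of triploid clones, entered only the estimate of the spread, and their values are given where they bear on a gene. All clones carried the same p53-/- genotype, were grown in Eagle's minimum essential medium with 10% fetal bovine serum and were untreated. Each array measured total RNA of 1 clone. The labels give no age of the embryo, no count of embryos and no account of how the clones arose or how they are related, so the p-values below measure the spread between these clones.

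A tetraploid cell carries a duplicated set of chromosomes, commonly after a failed cell division. In normal cells the tumour suppressor p53 halts many such cells before they divide again, and cells without p53 can go on cycling with the extra chromosomes and extra centrosomes. Pathways studied in tetraploid cells include the Hippo kinases and the surveillance of centrosome number, and such cells are usually larger, with more membrane and protein to make.

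Levels are log2 processed signals relative to the 75th percentile of each array, so that a level of 0 lies at that percentile, and differences are tetraploid minus diploid on the log2 scale with the standard error of the limma fit (n = 3 clones per group). A probe was kept if every array of the tetraploid group, of the diploid group or of both called it well above background, and a gene with several kept probes was represented by the brightest. Of 55681 probes, 21107 features were tested: 12204 named genes and 8903 probes without a gene name in the files. Between 44.8% and 50.9% of spots were well above background on the 6 arrays, and 0 spots were saturated. All 3 tetraploid clones and diploid clones 2 and 3 were on slide 2, while diploid clone 1 was the only array of the series on slide 1, so the genes that led each side are also given within slide 2, without that clone. For the 34 genes named below for passing, for their p or for their bound, the difference there was 0.906 to 1.18 times that over all clones. In each of the 34 the clones of the 2 groups did not overlap, so leaving out a clone could not change the direction. Of 39 gene lists 35 kept the sign of their median within slide 2, and no median moved by more than 0.27. The 4 that changed sign were YAP targets, VEGF and PDGF genes, imprinted genes and endothelial markers (-0.01 with all clones and 0.07 within slide 2).

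The clones were checked against their labels. Trp53, which encodes p53, was called well above background in diploid clone 2 alone (level -3.16). The probe's place relative to the deletion is not given, so this checks little. The Y-linked genes Ddx3y and Eif2s3y were bright in tetraploid clones 1 and 2 (Eif2s3y levels 2.87 and 3.19) and in all 3 diploid clones (2.26, 1.87 and 3.54), and were not above background in tetraploid clone 3 (-6.65). Xist, which silences an X chromosome, was above background in tetraploid clone 3 and in diploid clones 1 and 2. All 14 fibroblast markers were tested, and 11 were above background on all 6 arrays, Col1a1, Col1a2 and Vim among them. The summed linear level of the 14, in units of the 75th percentile, was 1447, 1242 and 1213 in tetraploid clones, against 1358, 1379 and 987.2 in diploid clones. Vim alone made 27.6% to 54.8% of that sum. The members did not share a direction: 0 lay above and 1 (Fap, -2.76 ± 1.67) below all diploid clones, with a median difference of 0.25. Of all named genes 15.8% lay above and 7.33% below. Thy1 (-7.58 ± 1.94) and Cdh11 (-1.40 ± 0.60) stood on the lower side, and Lum (1.81 ± 0.95) and Pdgfra (1.05 ± 0.55) on the higher, and 0 of the 14 passed. Markers of other cell types were partly dark and partly measured. Of 11 epithelial markers 4 (Cdh1, Epcam, Cldn3, Grhl2) were dark on all 6 arrays, and Cldn7 and Krt14 were above background on all 6. Krt18, a keratin of simple epithelium, was at -3.14, -3.13 and -4.68 in tetraploid clones, against 0.95, 0.80 and -1.49 in diploid clones (-3.74 ± 0.94, adjusted p = 0.12). Of 8 blood markers 4 (Ptprc, Adgre1, Tyrobp, Cx3cr1) were dark throughout, while Csf1r (2.19 to 3.01 in tetraploid clones, against 3.23 to 3.55 in diploid clones), Itgam (3.51 to 3.95, against 3.97 to 4.78) and Cd14 were measured in every clone. Dimmer probes did not share these differences: those of Csf1r differed by 0.48 and -0.22, and those of Itgam by 0.06 and -0.07. Of 7 skeletal muscle markers 5 (Myod1, Myog, Myf5, Ckm, Myh3) were dark throughout, and Acta1, skeletal actin, was at 3.02 to 4.02 in tetraploid clones, against 4.39 to 4.67 in diploid clones. Of 9 pluripotent and germ markers 4 (Pou5f1, Zfp42, Esrrb, Dazl) were dark throughout, and Nanog, Utf1 and Dppa5a were above background on all 6 arrays. Of 8 neural markers 2 (Pax6, Gfap) were dark throughout and 5 were above background on all 6 arrays. Nes (-2.02 ± 0.84) lay below and Sox10 (0.49 ± 0.21) above all diploid clones, and 0 passed. The summed neural level was 5.55, 5.02 and 6.47 in tetraploid clones, against 12.7, 14.3 and 6.91 in diploid clones. Nes made 13.2% to 75.3% of it. The part of such cells in the results below was not tested.

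At an adjusted p under 0.05, 16 features differed between tetraploid and diploid clones, 0.0758% of all features tested, and all 16 were lower in tetraploid clones. Among named genes 6 passed, 0.0492% of those tested. Of features higher in tetraploid clones 0 passed in limma (smallest adjusted p 0.0590), although 1421 had an unadjusted p under 0.05, beside 1766 that were lower. The 6 named genes encode a placental hormone (Prl3d1), an amino acid transporter (Slc43a1), a protocadherin (Pcdh20), a Myc family transcription factor (Mycl), an inhibitor of actin capping (Cracd) and a nucleoporin-like protein (Nup62cl). Of the 16 features, 7 were dark on all 3 tetraploid arrays and entered the test through the diploid clones alone. Slc43a1, Pcdh20, Mycl and Nup62cl were among the 7. Their fitted differences and p-values use tetraploid signals that were not above background, so bounds are given as well. For all 6 the tetraploid and diploid clones did not overlap, which fixed the direction within slide 2 in advance. Within slide 2, 0 features passed in limma and the 6 genes had adjusted p-values from 0.0747 to 0.0755.

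The promoters of the genes that led the comparison are shown from RefSeq (build GRCm38.p6), each spanning 250 bases before to 50 bases after the annotated start, 5′ to 3′ on the strand of the gene. The first set is Prl3d1, which passed, with its tandem neighbours Prl3d2, whose difference was just beyond the threshold, and Prl3d3. They are at chr13:27093939-27094238, chr13:27121445-27121744 and chr13:27156544-27156843, all on the + strand. Capitals mark matches to TGANTCA, the motif of AP-1 factors.

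Prl3d1: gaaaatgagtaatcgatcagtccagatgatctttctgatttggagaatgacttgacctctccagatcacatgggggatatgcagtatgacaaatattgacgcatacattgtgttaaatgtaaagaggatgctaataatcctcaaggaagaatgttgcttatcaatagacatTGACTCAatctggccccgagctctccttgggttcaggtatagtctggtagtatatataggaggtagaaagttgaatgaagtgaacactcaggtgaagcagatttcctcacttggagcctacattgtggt
Prl3d2: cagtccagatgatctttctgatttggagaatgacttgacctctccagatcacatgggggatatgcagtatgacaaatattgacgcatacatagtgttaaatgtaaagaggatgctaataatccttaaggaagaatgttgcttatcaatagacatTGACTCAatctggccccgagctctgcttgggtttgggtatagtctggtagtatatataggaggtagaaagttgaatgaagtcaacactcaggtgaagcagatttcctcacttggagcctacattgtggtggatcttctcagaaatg
Prl3d3: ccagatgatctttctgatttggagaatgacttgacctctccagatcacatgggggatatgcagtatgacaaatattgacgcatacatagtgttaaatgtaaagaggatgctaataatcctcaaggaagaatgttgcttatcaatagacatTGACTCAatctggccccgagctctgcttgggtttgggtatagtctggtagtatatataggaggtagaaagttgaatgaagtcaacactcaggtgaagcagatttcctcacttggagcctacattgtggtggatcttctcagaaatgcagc

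Each of the 3 holds 1 match to TGANTCA, at position -79 from the start of Prl3d1, -96 from that of Prl3d2 and -100 from that of Prl3d3. Aligned end to end, the promoters of Prl3d1 and Prl3d2 were identical at 277 of 317 positions (87.4%), those of Prl3d2 and Prl3d3 at 295 of 304 (97.0%), and those of Prl3d1 and the more distant family member Prl3b1 at 178 of 317 (56.2%). A second set is Slc43a1 (chr2:84840073-84840372, + strand) and Mycl (chr4:122995681-122995980, + strand), shown because Myc family proteins bind CACGTG, the canonical E-box. Capitals mark CACGTG and, on either strand, TATAAA.

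Slc43a1: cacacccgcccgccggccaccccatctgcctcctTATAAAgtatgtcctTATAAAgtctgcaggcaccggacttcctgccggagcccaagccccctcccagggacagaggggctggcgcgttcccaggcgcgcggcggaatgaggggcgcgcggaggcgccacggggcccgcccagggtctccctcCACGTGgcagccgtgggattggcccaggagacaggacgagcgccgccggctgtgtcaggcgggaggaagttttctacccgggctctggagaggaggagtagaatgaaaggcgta
Mycl: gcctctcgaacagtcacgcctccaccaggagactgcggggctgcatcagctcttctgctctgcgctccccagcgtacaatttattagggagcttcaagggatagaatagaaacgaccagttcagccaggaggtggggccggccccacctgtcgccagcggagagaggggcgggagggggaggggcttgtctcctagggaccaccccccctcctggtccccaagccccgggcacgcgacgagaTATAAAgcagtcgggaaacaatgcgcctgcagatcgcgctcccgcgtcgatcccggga

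The Slc43a1 promoter holds 1 CACGTG, at position -64 from the start, and 2 matches to TATAAA, while the Mycl promoter holds 0 matches to CACGTG and 1 to TATAAA at position -8. The promoters of Pcdh20, Nup62cl and Cracd hold none of the 3 motifs. Over 32851 promoters of the same 300 bases, outside chromosome 18, 7.15% hold CACGTG, 13.6% hold TATAAA and 7.81% hold TGANTCA. A match says only that these letters stand in the window.

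**Figure D1:**
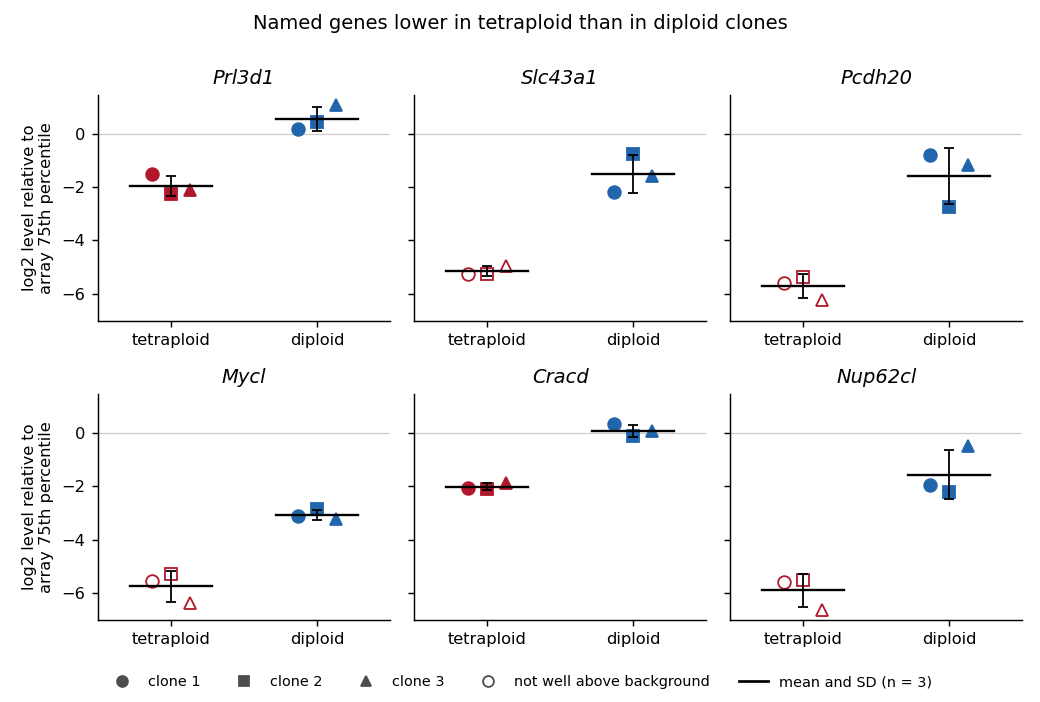
Levels of the 6 named genes that passed, log2 relative to the 75th percentile of each array, in 3 tetraploid clones (red, left) and 3 diploid clones (blue, right). Lines and bars are the mean and SD, and open symbols are genes not well above background on any array of that group. In every panel all tetraploid clones lie below all diploid clones.

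Prl3d1, placental lactogen I of trophoblast giant cells, fell in tetraploid clones. Its level was -1.52, -2.25 and -2.11 in tetraploid clones 1 to 3, against 0.19, 0.46 and 1.07 in diploid clones 1 to 3. The signal was therefore above background in all 6 clones and 5.78-fold lower in tetraploid clones (difference -2.53 ± 0.33, adjusted p = 0.0413, and -2.72 within slide 2). Triploid clones lay between, at -0.16, -0.84 and -0.95. A further Prl3d1 probe was dark on all 6 arrays.

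Prl3d2, its near-identical neighbour, was at -2.81, -4.36 and -3.12 in tetraploid clones, against -0.40, -0.16 and 0.47 in diploid clones. It differed by -3.40 ± 0.48 (-3.59 within slide 2) and missed the threshold (adjusted p = 0.0536). The probes' sequences were not given, so signal of the 2 genes, or of Prl3d3, cannot be told apart where they share sequence. Prl3a1, another placental family member, was dark in all tetraploid clones and at -2.29, -1.96 and -2.94 in diploid clones (adjusted p = 0.0826).

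Of 26 prolactin family genes 23 had a probe and 7 were bright enough to test, with a median difference of -0.44. Of these 7, 1 was called lower, and 3 (Prl3d1, Prl3d2 and Prl3a1) lay below and 1 above all diploid clones, where 7.33% of all named genes lay below and 15.8% above. Prl3a1 entered the test through the diploid clones alone. The 1 above was Prl2c1, a proliferin, at 3.18, 2.70 and 4.04 in tetraploid clones, against -0.50, 2.41 and 1.68 in diploid clones (2.11 ± 1.17, adjusted p = 0.43). Prl3b1, placental lactogen II, overlapped between the groups (-0.44 ± 0.32).

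Other trophoblast markers were mostly unmeasured, and those measured did not share a direction. Cdx2, Hand1, Elf5 and Tpbpa were dark on all 6 arrays. Eomes, a factor of trophoblast stem cells, was at -2.12, -0.90 and -3.07 in tetraploid clones, against -2.57, -3.83 and -2.50 in diploid clones, and overlapped between them (0.94 ± 0.64, adjusted p = 0.52). Gcm1, a factor of the placental labyrinth, was at 3.80, 3.91 and 3.95 in tetraploid clones, against 4.62, 4.84 and 5.06 in diploid clones (-0.95 ± 0.27, adjusted p = 0.16). Dimmer Gcm1 probes differed by -0.41 and -1.30, and another was dark on all 6 arrays. The summed level of the 9 trophoblast markers was 15.1, 16.5 and 16.3 times the 75th percentile in tetraploid clones, against 26.7, 30.6 and 36.1 in diploid clones. Gcm1 alone made 91.4% to 95.2% of that sum. Without it the sum, which still holds Prl3d1, was 1.08, 1.42 and 0.777 in tetraploid clones, against 2.19, 2.05 and 2.74 in diploid clones. In such bulk RNA fewer cells of a type and less RNA per cell cannot be told apart.

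Slc43a1 carries large neutral amino acids into cells as part of System L. It was not well above background in any tetraploid clone (-5.26, -5.25 and -4.95), against -2.19, -0.77 and -1.58 in diploid clones. Where all arrays of a group are dark, only a bound is given: the mean of the bright group against the mean of the lowest signal that each dark array called above background, or the gene's own where that is higher. On that measure Slc43a1 was at least 4.94-fold lower in tetraploid clones (fitted difference -3.63 ± 0.48, adjusted p = 0.0432, and -3.97 within slide 2). Triploid clones were not intermediate: they stood at -1.09, 0.61 and 0.41.

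The rest of the transporter list did not share that direction. Of 10 tested System L and related transporters, Slc43a1 alone passed, 2 lay above and 2 below all diploid clones, and the median difference was 0.04. Over all named genes 15.8% lay above and 7.33% below. Slc43a2, a close relative, was at -2.03, -2.19 and -1.08 in tetraploid clones, against -2.90, -4.28 and -2.80 in diploid clones (1.56 ± 0.43, adjusted p = 0.14). Slc3a2, the heavy chain of System L transporters of the Slc7 family, differed by 0.57 ± 0.32. Slc38a1, a glutamine carrier, differed by -1.59 ± 0.46 (adjusted p = 0.16), and 0 of these genes were past the threshold.

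Pcdh20, a protocadherin of the delta class of adhesion molecules, was dark in all tetraploid clones (-5.60, -5.36 and -6.23) and measured in every diploid clone (-0.80, -2.76 and -1.16). It was at least 4.75-fold lower in tetraploid clones (-4.16 ± 0.51, adjusted p = 0.0358, and -3.77 within slide 2). In triploid clones it was dark as well. Of 7 tested delta-protocadherins, Pcdh20 among them, 3 lay below and 0 above all diploid clones, with a median of -0.59. Over all named genes 7.33% lay below and 15.8% above. In the 5 members above background on all 6 arrays the median was -0.26. Pcdh20 alone passed, and it entered the test through the diploid clones alone. Pcdh18, also below, was barely separated (2.92 in tetraploid clone 2, against 2.93 in diploid clone 1). Pcdh19 was at 2.42, 2.31 and 0.56 in tetraploid clones, against 3.73, 3.61 and 2.47 in diploid clones (-1.51 ± 0.65, adjusted p = 0.32). Among classical cadherins, Cdh2, N-cadherin, was lower in every tetraploid clone (4.39, 3.40 and 3.78, against 5.17, 4.67 and 4.53 in diploid clones), and did not pass (-0.93 ± 0.37, adjusted p = 0.27). Cdh13, a cadherin anchored to the membrane by a lipid, lay above all diploid clones, at 3.28, 2.56 and 3.17 in tetraploid clones, against 2.04, 1.29 and 2.19 in diploid clones (1.16 ± 1.07, adjusted p = 0.64). Triploid clones, at 0.11, -2.14 and -5.31, entered that standard error, and with the 6 arrays alone the adjusted limma p was 0.19. The 5 tested classical cadherins had 1 above and 1 below and a median of -0.28.

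Mycl, the L-Myc gene, was dark in all tetraploid clones (-5.57, -5.28 and -6.40) and only just above background in diploid clones (-3.13, -2.85 and -3.23). The bound was therefore small, at least 1.68-fold lower in tetraploid clones (-2.68 ± 0.33, adjusted p = 0.0358, and -2.71 within slide 2). Its relatives did not pass: Myc itself was at 2.47, 2.60 and 1.81 in tetraploid clones, against 2.47, 2.18 and 2.55 in diploid clones, and Mycn was dark in all tetraploid clones and above background in 2 of 3 diploid clones. Over the 10 tested genes of the Myc, Max and Mxd network the median difference was 0.18, with 1 above and 2 below all diploid clones. The shares over all named genes were 15.8% above and 7.33% below.

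Cracd encodes an inhibitor of the capping protein that stops actin filaments from growing, and it gave the smallest p of the 6. Its level was -2.08, -2.11 and -1.86 in tetraploid clones, against 0.32, -0.13 and 0.07 in diploid clones. It was 4.29-fold lower (-2.10 ± 0.21, adjusted p = 0.0286, and -1.98 within slide 2), with an SD over clones of 0.14 in tetraploid and 0.23 in diploid clones. In all 3 triploid clones it was dark. The capping protein subunits themselves, Capza1 (0.33 ± 0.24), Capza2 (0.17 ± 0.23) and Capzb (-0.08 ± 0.18), did not pass, and neither did the twinfilins Twf1 (0.67 ± 0.23) and Twf2 (0.86 ± 0.28), which bind capping protein. Of the 13 tested genes of this list 5 lay above and 2 below all diploid clones, beside 15.8% above and 7.33% below over all named genes.

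Nup62cl, an X-linked gene similar to the pore protein Nup62, was dark in all tetraploid clones (-5.59, -5.51 and -6.63) and at -1.96, -2.21 and -0.51 in diploid clones. It was at least 4.79-fold lower (-4.35 ± 0.56, adjusted p = 0.0413, and -4.55 within slide 2), and another probe of the gene was also dark in tetraploid clones and measured in all diploid clones. Of 27 tested nucleoporin genes it alone passed and it alone lay below all diploid clones, with 0 above and a median of 0.07. Among all named genes 7.33% lay below and 15.8% above.

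The calls depended on which clones entered the fit. In 9 fits that each left out 1 of the 9 clones, the direction of the 6 genes could not change, since their clones did not overlap. Each gene passed in at most 4 of the 9 fits, with adjusted p-values from 0.0243 to 0.178. All 6 passed without triploid clone 1 (adjusted p from 0.0243 to 0.0411). None of the 6 passed without tetraploid clone 1 (lowest adjusted p 0.0820), without tetraploid clone 3 (0.0558), without diploid clone 1 (0.0747) or without triploid clone 2 (0.0519). Of the 6, 2 passed without tetraploid clone 2, 1 without diploid clone 2 (lowest adjusted p 0.0342), 1 without diploid clone 3 (0.0306) and 2 without triploid clone 3.

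**Figure D2:**
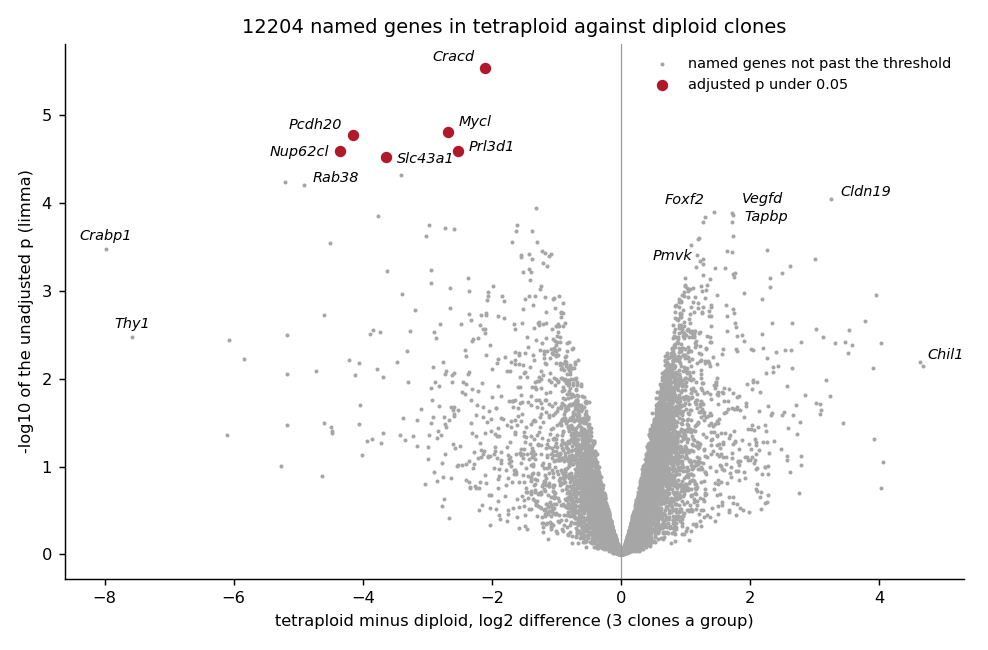
Difference between tetraploid and diploid clones (horizontal, log2) against -log10 of the unadjusted limma p (vertical) for 12204 named genes. The 6 genes that passed, in red, are all lower in tetraploid clones; Cldn19, Foxf2, Vegfd and Tapbp lead the other side without passing.

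Of all named genes 1926, or 15.8%, were higher in every tetraploid clone than in every diploid clone, and 895, or 7.33%, were lower in every one. Over all features tested the counts were even, 2388 (11.3%) higher and 2376 (11.3%) lower, since probes without a gene name ran the other way, with 462 higher and 1481 lower. The median difference was 0.11 over named genes and -0.01 over all features. Among genes that were above background on all 6 arrays and did not overlap, the 10 of smallest p on the higher side differed by 1.08 to 1.74 on the log2 scale, with adjusted p-values from 0.0609 to 0.0754. The corresponding 10 on the lower side held Cracd and Prl3d1 and 8 genes that did not pass.

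The 10 on the higher side held a forkhead factor, a VEGF ligand and a gene of class I presentation, none of them past the threshold. Foxf2, a forkhead factor of mesenchyme, was at 0.76, 1.28 and 0.54 in tetraploid clones, against -0.63, -0.58 and -0.52 in diploid clones (1.44 ± 0.23, adjusted p = 0.0609, and 1.41 within slide 2). The list of forkhead and mesenchyme position factors that holds it had 2 of 13 genes above and 2 below all diploid clones and a median of -0.21. Vegfd, a ligand for the receptors of lymphatic endothelium, was at 4.40, 4.37 and 5.19 in tetraploid clones, against 2.73, 3.22 and 2.84 in diploid clones (1.72 ± 0.28, and 1.62 within slide 2). Tapbp, which helps load peptides onto class I molecules, was at 2.51, 2.11 and 2.84 in tetraploid clones, against 0.66, 0.56 and 1.04 in diploid clones (1.74 ± 0.28, and 1.69 within slide 2). That the clones of the 2 groups did not overlap for these 3 genes was a condition of their choice.

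Ndrg1, a gene known for its response to hypoxia and differentiation, was at 3.07, 3.69 and 3.75 in tetraploid clones, against 2.06, 1.79 and 1.52 in diploid clones (1.71 ± 0.28, and 1.85 within slide 2). Ddx50, an RNA helicase of the nucleolus, differed by 1.29 ± 0.21 and Kifbp, a binding partner of kinesins, by 1.08 ± 0.19. Rin2, an exchange factor for Rab5 (1.65 ± 0.30), Dclk1, a microtubule-associated kinase (1.71 ± 0.31), the dehydrogenase Dhrs7 (1.21 ± 0.21) and Morn2 (1.19 ± 0.21) completed the 10. Kifbp and Dclk1 had further measured probes, all of the same direction.

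On the lower side Fabp3, a fatty acid binding protein of muscle, was at 2.22, 0.47 and -0.01 in tetraploid clones, against 3.81, 3.58 and 4.21 in diploid clones (-2.97 ± 0.50, adjusted p = 0.0623, and -3.0 within slide 2). Tes, a LIM protein of focal adhesions, was at 2.29, 2.55 and 0.90 in tetraploid clones, against 4.28, 5.11 and 4.13 in diploid clones (-2.59 ± 0.44, and -2.71 within slide 2). Both were lower by over 1 log2 unit in every tetraploid clone than in any diploid clone. Ercc2, a helicase of nucleotide excision repair (-1.30 ± 0.23), Usp24, a deubiquitinase (-1.32 ± 0.21), Pigm, which builds glycolipid anchors (-1.38 ± 0.23), Slc25a22, a mitochondrial glutamate carrier (-1.61 ± 0.27), Npas4, an activity-dependent factor of neurons (-1.69 ± 0.30), and Gm4907 (-2.74 ± 0.46) made up the rest.

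Some genes were above background in only 1 of the groups. Of 12204 named genes 17 were so in all tetraploid and 0 diploid clones, and 48 in all diploid and 0 tetraploid clones. Over all 21107 features the counts were 32 and 193. Spots well above background made 46.2%, 44.8% and 50.9% in tetraploid clones 1 to 3, against 48.0%, 48.0% and 50.4% in diploid clones. The part of that difference in these counts was not tested. Crabp1, which binds retinoic acid, was dark in all tetraploid clones and at 3.91, 4.67 and -1.36 in diploid clones, at least 75-fold lower in tetraploid clones by the means. Diploid clone 3 was far below the other 2 there, and the gene did not pass (fitted difference -7.98, adjusted p = 0.0754, and -7.23 within slide 2). Ctla2b, related to a protease propeptide (0.54, 3.27 and -3.42 in diploid clones), and 1700009N14Rik (0.83, 3.01 and -3.85) had the same order of diploid clones, with bounds of 15.4-fold and 14.1-fold.

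Rab38, a GTPase of melanosome transport, was dark in all tetraploid clones and at -1.38, 0.68 and -1.31 in diploid clones (at least 8.87-fold lower, adjusted p = 0.0538), although another Rab38 probe was dark on all 6 arrays. Inava, at -0.62, 0.68 and -4.0 in diploid clones, had a bound of 5.69-fold. Higher in tetraploid clones was Cldn19, a tight junction claudin, at -1.70, -3.03 and -1.06 in tetraploid clones and dark in all diploid clones (at least 3.60-fold higher, 3.25 ± 0.50, adjusted p = 0.0590, and 3.06 within slide 2). Chil1, a secreted chitinase-like protein, was at -2.30, 0.21 and 0.92 in tetraploid clones, at least 10.5-fold higher (adjusted p = 0.15). Sncaip, a partner of alpha-synuclein (at least 4.14-fold), Vwf, the von Willebrand factor of endothelium (4.00-fold), and P3h2, a collagen prolyl hydroxylase (3.22-fold), were the next.

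Of 8 endothelial markers, Vwf among them, Emcn was dark on all 6 arrays and Cdh5 in all tetraploid clones. Pecam1 was above background on all 6 arrays and overlapped between the groups (-0.01 ± 0.20, adjusted p = 0.99). Tie1 (0.65) was above background in tetraploid clone 2 alone and Tek (-4.07) in tetraploid clone 3 alone, and Erg in tetraploid clone 2 (-2.70) and diploid clone 1 (-3.46). The summed level was 21.99, 24.99 and 14.29 times the 75th percentile in tetraploid clones, against 27.05, 32.12 and 24.93 in diploid clones, and Kdr, a VEGF receptor, made 91.0% to 98.7% of it. Kdr itself was lower in every tetraploid clone than in any diploid clone (-0.55 ± 0.32, adjusted p = 0.44), and a dimmer Kdr probe differed by -2.74. Without Kdr the sum was 0.517, 2.24 and 0.848 in tetraploid clones, against 0.455, 0.421 and 0.380 in diploid clones. The part of endothelial cells in the Vwf difference was not tested.

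Gene lists are described by how many members separated the clones and by their median difference, beside 15.8% higher, 7.33% lower and 0.11 over all named genes. Cholesterol synthesis, the pathway from acetyl-CoA to sterol membranes, had 25 of 25 genes tested, 11 higher in every tetraploid clone and 0 lower, and a median of 0.48. None of the 25 passed. The median of the list was 0.79, 0.55 and 0.28 above the diploid mean in tetraploid clones 1 to 3, and 0.01, -0.12 and 0.06 from it in diploid clones 1 to 3. Without diploid clone 1 the median was 0.50.

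The enzymes named next were picked from the 11 genes higher in every tetraploid clone, and they lie along the pathway. The other 14 of the 25 genes overlapped between the groups, and only Insig1 and Srebf2 of them are named. Early steps were Hmgcs1, which makes HMG-CoA (0.78 ± 0.29), and Mvk (0.65 ± 0.21), Pmvk (1.16 ± 0.22) and Mvd (0.87 ± 0.27), which phosphorylate and decarboxylate mevalonate. Pmvk, at the smallest p of the list, was at 5.35, 5.76 and 5.52 in tetraploid clones, against 4.34, 4.26 and 4.55 in diploid clones (adjusted p = 0.0817), and a further probe differed by 1.26 in the same direction. Fdft1, which makes squalene, was at 3.49, 3.50 and 3.30 in tetraploid clones, against 2.56, 2.56 and 2.79 in diploid clones (0.80 ± 0.23, adjusted p = 0.16). Sqle, which oxidises squalene (0.90 ± 0.27), Lss, which closes the sterol rings (0.74 ± 0.23), and Nsdhl, which trims them (0.99 ± 0.32), also lay above all diploid clones. Insig1, which retains the sterol sensor in the endoplasmic reticulum (0.19 ± 0.27), and Srebf2, the regulator of the pathway (0.27 ± 0.24), overlapped between the groups.

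**Figure D3:**
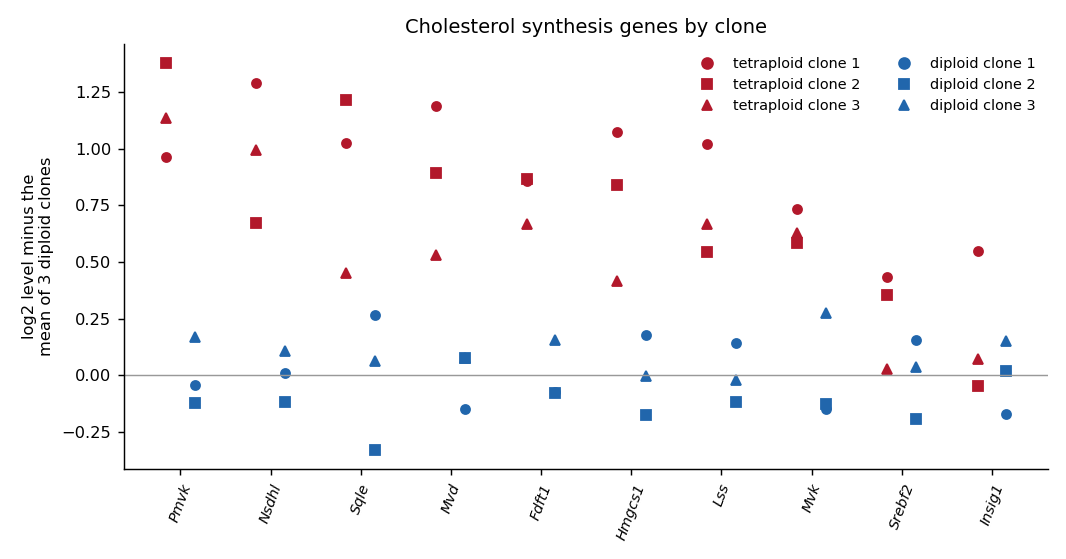
The 10 cholesterol synthesis genes named in the text, as log2 level minus the mean of the 3 diploid clones (vertical), in 3 tetraploid clones (red, left of each gene) and 3 diploid clones (blue, right). From Pmvk to Mvk every tetraploid clone lies above every diploid clone, and Srebf2 and Insig1 overlap. Of all 25 genes of the list 14 overlapped.

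Fatty acid synthesis moved less evenly, with 3 of 13 genes above and 1 below all diploid clones and a median of 0.19. Acss2, which makes acetyl-CoA (1.42 ± 0.40), and Elovl6, which lengthens fatty acids (0.69 ± 0.24), were on the higher side, and Fasn, the fatty acid synthase, on the lower (-0.57 ± 0.19, adjusted p = 0.22). Of 36 lysosome and autophagy genes 9 lay above and 1 below all diploid clones, with a median of 0.26. Among them were Tfeb, the regulator of lysosome genes (1.29 ± 0.43), Psap (0.77 ± 0.25) and Ctsb (0.78 ± 0.26), while Gla, alpha-galactosidase, lay below (-0.92 ± 0.30). None of either list passed.

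Genes of the unfolded protein response and chaperones of the endoplasmic reticulum had 10 of 27 members above and 1 below all diploid clones, with a median of 0.42 and 0 past the threshold. The list median was 0.45, 0.44 and 0.43 above the diploid mean in the 3 tetraploid clones, the most even of the lists drawn in the plot of lists by clone. Calr, calreticulin, was at 7.11, 7.30 and 7.03 in tetraploid clones, against 6.56, 6.60 and 6.26 in diploid clones (0.67 ± 0.20, adjusted p = 0.17). Hsp90b1 differed by 0.63 ± 0.24, Dnajc3 by 0.82 ± 0.30 and Herpud1 by 0.95 ± 0.36. The sensors Ern1 (-0.31 ± 0.23), Atf6 (-0.05 ± 0.31) and Eif2ak3 (0.44 ± 0.45) and the main chaperone Hspa5 (0.18 ± 0.20) did not pass. Heat shock genes (median 0.20) and the proteasome (0.17) differed between clones instead: the proteasome median was 0.16, 0.65 and -0.38 in tetraploid clones 1 to 3, with 0 of 31 genes above and 1 below all diploid clones.

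Most cell cycle lists had medians above that of all named genes, and tetraploid clone 2 stood highest in each of the lists named here. Cohesin, condensin and separation genes had 8 of 23 above and 0 below all diploid clones, with a median of 0.51 (0.37, 0.80 and 0.27 in tetraploid clones, against 0.26, -0.13 and -0.12 in diploid clones). Rad21, a cohesin subunit, was at 5.74, 6.55 and 5.61 in tetraploid clones, against 5.37, 5.06 and 5.14 in diploid clones (0.78 ± 0.27), and Ncapg of condensin differed by 0.77 ± 0.21 (adjusted p = 0.14). Cytokinesis genes and mitotic motors had 10 of 27 above and 0 below, with a median of 0.30. Kif11, the motor that pushes spindle poles apart, was at 1.31, 1.79 and 1.55 in tetraploid clones, against 0.91, 0.30 and -0.06 in diploid clones (1.16 ± 0.31, adjusted p = 0.13). Ect2, which starts the cleavage furrow, differed by 0.78 ± 0.31 and Kif20a by 0.72 ± 0.22, and 0 of these genes passed.

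Kinetochore and spindle checkpoint genes had 7 of 25 above and 0 below all diploid clones (median 0.33), led by Cenpm (1.22 ± 0.32), Ndc80 (0.81 ± 0.24) and Cenph (0.89 ± 0.26). DNA replication genes had 7 of 41 above and 0 below, with a median of 0.19, 0.88 and -0.06 in tetraploid clones 1 to 3, against 0.12, -0.10 and 0.03 in diploid clones. The replication list thus differed more among tetraploid clones than between the groups, and without tetraploid clone 2 its median relative to all features was 0.07 (0.33 with all clones). Centrosome and centriole genes had 3 of 20 above and 3 below, with a median of 0.04. Plk4, which sets centriole number, was at -0.13, 0.88 and 0.11 in tetraploid clones, against -0.23, -0.61 and -0.72 in diploid clones (0.80 ± 0.30).

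Among G1 regulators the pocket proteins Rbl2 (1.36 ± 0.32, adjusted p = 0.11) and Rbl1 (0.93 ± 0.22, adjusted p = 0.11) were on the higher side. Rbl2, or p130, was at -1.16, -0.70 and 0.13 in tetraploid clones, against -1.82, -2.12 and -1.85 in diploid clones. Of 15 G1 genes tested 4 lay above and 1 below all diploid clones. The E2F and DP factors, their partners, had 0 of 10 above and 0 below and a median of 0.02.

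Genes known as targets of p53 were read in cells without it. Of 27 tested 6 lay above and 3 below all diploid clones, with a median of 0.24, and 0 passed. Sesn1, an inhibitor of mTORC1, was at 1.93, 2.59 and 2.12 in tetraploid clones, against 0.64, 0.83 and 1.02 in diploid clones (1.38 ± 0.31, adjusted p = 0.10). Gadd45a was at 1.58, 1.77 and 1.75 in tetraploid clones, against 1.04, 0.91 and 0.69 in diploid clones (0.82 ± 0.21). Cdkn1a, the p21 inhibitor, was at 0.50, 0.58 and -0.10 in tetraploid clones, against -0.57, -0.27 and -0.79 in diploid clones (0.87 ± 0.59, adjusted p = 0.51). The cell death inducer Pmaip1 stood the other way, at -1.03, -1.73 and -2.90 in tetraploid clones, against 1.12, 0.87 and 0.52 in diploid clones (-2.72 ± 1.08, adjusted p = 0.28). Pidd1, of the complex that reads extra centrosomes, was lower as well (-0.84 ± 0.23, adjusted p = 0.14), and its partner Cradd overlapped between the groups (0.70 ± 0.29), neither past the threshold.

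**Figure D4:**
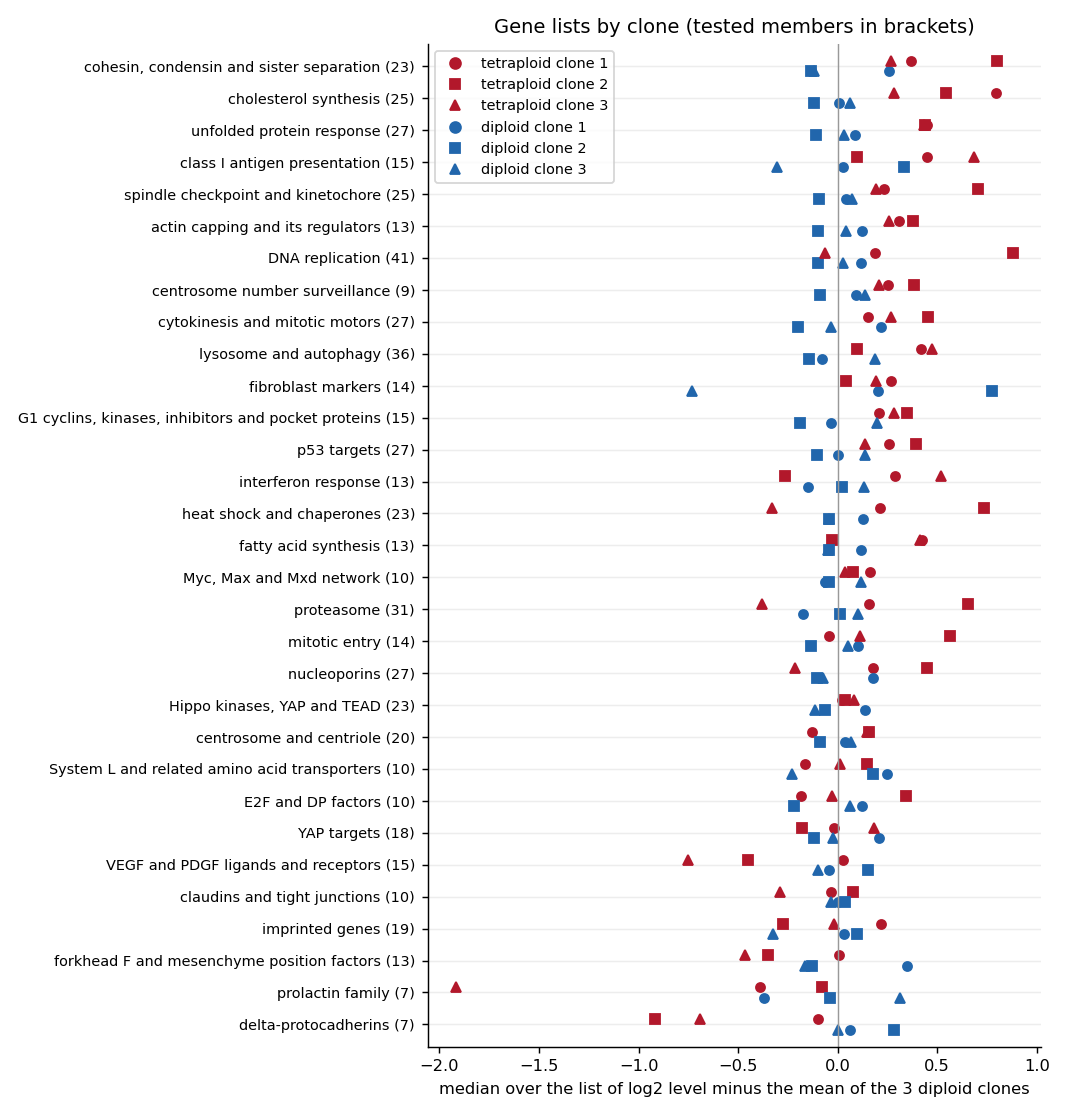
Median over each gene list of the log2 level minus the mean of the 3 diploid clones (horizontal), for 3 tetraploid clones (red, upper) and 3 diploid clones (blue, lower), in lists with at least 7 tested members. Cohesin, cholesterol synthesis and the unfolded protein response stand at the top with all 3 tetraploid clones above all 3 diploid clones, and DNA replication, heat shock and proteasome spread among tetraploid clones.

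Hippo pathway genes and the targets of its effector YAP showed no shared direction. Of 23 kinases, YAP and TEAD genes 2 lay above and 2 below all diploid clones (median 0.07), and of 18 YAP targets 2 lay above and 3 below (median 0.00, and 0.14 within slide 2). Axl, a receptor kinase, was at 4.60, 4.00 and 4.68 in tetraploid clones, against 5.51, 5.45 and 5.25 in diploid clones (-0.98 ± 0.24, adjusted p = 0.11). Ankrd1 was at -3.97, -1.33 and -6.64 in tetraploid clones, against 2.61, 3.87 and -0.10 in diploid clones (-6.11 ± 2.62, adjusted p = 0.32), while Ccn1 (0.26 ± 0.36) and Ccn2 (-0.39 ± 0.75) overlapped. Of 15 VEGF and PDGF ligands and receptors Vegfd alone lay above all diploid clones and 3 lay below, among them Pdgfc (-0.82 ± 0.30) and Vegfa (-0.55 ± 0.34), and the median was -0.11 (0.05 within slide 2).

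Class I presentation genes had 4 of 15 above and 0 below all diploid clones: Tapbp and its relative Tapbpl (1.06 ± 0.25, adjusted p = 0.11), with Calr and Pdia3, which also belong to the unfolded protein list. The class I molecules H2-K1 (0.35 ± 0.52) and H2-D1 (0.30 ± 0.29) and their light chain B2m (0.11 ± 0.20) did not pass. Of 13 interferon response genes 4 lay above and 0 below, among them Ifit3 (2.05 ± 0.55, adjusted p = 0.14), Irf1 (0.62 ± 0.22) and the DNA sensor Cgas (0.61 ± 0.21). Relative to all features their median was 0.23 with all clones, -0.18 without tetraploid clone 1 and -0.22 without tetraploid clone 3, so no direction is given for that list.

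Imprinted genes, expressed from a single parental copy, varied widely between clones. Meg3, a maternally expressed RNA, was at 3.02, -0.73 and 2.99 in tetraploid clones, against 3.64, 5.51 and 4.97 in diploid clones (-2.95 ± 0.96, adjusted p = 0.20), so that clone 2 made most of the difference. Ndn was at -1.15, -1.36 and 0.28 in tetraploid clones, against 1.71, 2.21 and 1.33 in diploid clones (-2.49 ± 1.15), and Mest at 3.22, 2.20 and 5.55 in tetraploid clones, against 1.89, 1.20 and 1.22 in diploid clones (2.22 ± 1.86). Of 19 tested 3 lay above and 3 below all diploid clones, 0 passed, and the median was -0.15 (0.12 within slide 2). Thy1, a fibroblast surface marker, was at 2.66, -4.67 and -4.13 in tetraploid clones, against 6.42, 7.62 and 2.55 in diploid clones (-7.58 ± 1.94, adjusted p = 0.12).

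The likeness of tetraploid clones to each other and to diploid clones lay in overlapping ranges. Over all features the correlation of levels was 0.978, 0.976 and 0.955 between pairs of tetraploid clones, from 0.971 to 0.982 between diploid clones and from 0.941 to 0.975 between the groups. Features are not independent replicates, and these values are a description. The median SD over clones was 0.34 in tetraploid and 0.30 in diploid clones for named genes. Tetraploid clone 2 had 669 named genes over 1 log2 unit below both other tetraploid clones and 236 above them, clone 3 had 373 and 519, and clone 1 had 97 and 133.

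Several genes were far lower in 1 tetraploid clone while the diploid clones lay within 1 log2 unit. Pitx1, a homeobox factor of the hindlimb, was at -6.75 in tetraploid clone 3, against 2.59 and 3.92 in the others and 2.93, 2.40 and 2.42 in diploid clones. Nid1, nidogen of basement membranes, was at -2.05 in tetraploid clone 2, against 3.55 and 4.22 in the others and 4.68, 4.72 and 3.90 in diploid clones. Khdrbs3, an RNA-binding protein (-3.32), Efemp1, a matrix protein (-3.24), and Rarres1 (-2.36) were likewise lowest in clone 2. Rps4l was at 0.65, -4.72 and 5.51 in tetraploid clones, against 4.20, 4.52 and 4.77 in diploid clones.

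Snrpn, a paternally expressed imprinted gene, was at -4.79 in tetraploid clone 1, against -0.44 and 1.02 in the others and 0.61, 0.78 and 1.19 in diploid clones, and the protease Klk8 was also low there (-5.84). The choline transporter Slc5a7 (-6.78), the phosphatase Dusp2 (-5.22) and Tmem171 (-3.86) were lowest in tetraploid clone 3. Gains of this kind were Gdf15, a stress-induced cytokine, at 1.43 in tetraploid clone 3, against -4.04 and -3.64 in the others and -0.93, -0.54 and -1.22 in diploid clones, and Agxt2 at 0.72 in clone 2. Ctsc, a lysosomal protease, was at -1.19 in clone 1 and dark in clones 2 and 3, against 0.39, 0.29 and 0.13 in diploid clones. With 1 array per clone these values have no replicate within a clone.

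Grouped by chromosome, named genes shifted most on chromosomes 7, 8 and 15. For each clone the median was taken of levels minus the diploid mean (for a diploid clone, the mean of the other 2), less the same median over all named genes. Genes of chromosome 15 (504) stood at 0.20, 0.44 and 0.07 in tetraploid clones 1 to 3, and 27.6% of them were higher in every tetraploid clone, against 15.8% of all named genes. Genes of chromosome 8 (668) stood at 0.16, 0.30 and 0.15, with 25.9% higher. Genes of chromosome 7 (965) stood at -0.23, -0.34 and -0.18, and 17.8% of them were lower in every tetraploid clone, against 7.33% overall.

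Chromosomes 4 (-0.17), 12 (-0.15) and 1 (-0.14) lay lower in all 3 tetraploid clones too. Chromosomes 3, 5, 11, 14, 17 and X lay above 0 in all 3, by 0.02 to 0.11, and chromosome 3 was high in tetraploid clone 2 alone (0.28, against 0.04 in each of the others). On chromosomes 11, 12, 14, 17 and X the tetraploid and diploid clones overlapped. The diploid clones stayed between -0.09 and 0.10 on every chromosome. Within slide 2 the differences were 0.27 for chromosome 15, 0.19 for chromosome 8 and -0.25 for chromosome 7. Ndrg1 and Sqle are on chromosome 15, and Slc25a22, Ercc2 and Axl on chromosome 7. Copy number was not measured, and its part in these shifts was not tested.

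**Figure D5:**
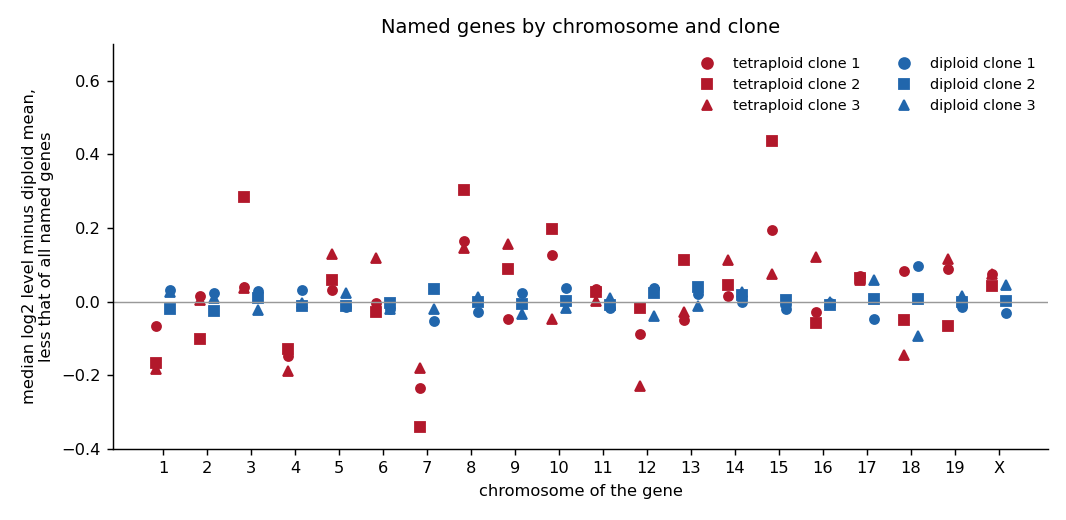
Median log2 level of named genes by chromosome, minus the diploid mean (the mean of the other 2 for a diploid clone) and less the median over all named genes, for 3 tetraploid clones (red, left) and 3 diploid clones (blue, right). Chromosomes 3, 5, 8, 11, 14, 15, 17 and X lie above 0 and chromosomes 1, 4, 7 and 12 below 0 in all 3 tetraploid clones, with 7, 8 and 15 farthest from 0, and diploid clones stay near 0.

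The 10 other features that passed had no gene name in the files: 5 were probes for predicted RefSeq transcripts, 4 were named by a position range and 1 by an Ensembl transcript. All were lower in tetraploid clones, by 1.78 to 3.03 on the log2 scale, and 3 of them were dark in all tetraploid clones. Unnamed probes as a class leaned the other way from named genes, with a median difference of -0.16, against 0.11 for named genes. Relative to the diploid mean, named genes had medians of 0.12, 0.20 and 0.01 in tetraploid clones 1 to 3, and probes named by a position range had -0.08, 0.04 and -0.52. Those for predicted transcripts had -0.05, 0.16 and -0.47, and those with other names -0.18, -0.09 and -0.48, of which 25.8% were lower in every tetraploid clone. Each unnamed class thus lay below named genes in all 3 tetraploid clones, by most in clone 3. That clone also had the highest 75th percentile signal (407, against 268 and 281 in tetraploid clones 1 and 2 and 332, 259 and 215 in diploid clones), whose part in the lean was not tested.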

How the data were processed

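Total RNA was labelled with Cy3 and hybridised to one-colour Agilent arrays, and intensity values were extracted by the authors with Agilent Feature Extraction 10.7.3.1, per the file headers. The deposited intensity used here is the processed signal, already background-subtracted. Spots that were controls or outlier-flagged were left out, signals were taken as log2, probes averaged, and each array centred on the 75th percentile of its probes. The authors' deposited value table holds log2 values relative to diploid clone 1, and 99.6% of them matched the scanner values within 0.001.

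All 9 arrays were fitted with limma 3.58.1 (R 4.3.3, lmFit and eBayes), the contrast being tetraploid minus diploid, with Benjamini-Hochberg adjustment over 21107 features and a threshold of 0.05. Alternatives changed the scaling, background correction, filter, arrays, clones, slide and probe rule, 1 at a time. Dimmer probes of a gene were not tested. Named genes were the 6 that passed, the 10 of smallest p in each direction without overlap, the 5 largest bounds in each direction, up to 3 of smallest p in each list, and genes over 4 log2 units apart in 1 tetraploid clone. Other members of a list are named after their values were seen. Some genes are not reported here. The clones, gene lists and naming rule were chosen with earlier results of these data known.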

Additional observations from a re-analysis of the deposited data

How the results depend on the processing

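The 16 calls (0 higher and 16 lower in tetraploid clones) depended on the processing, and the cause of each change was not tested. The count was 16, all lower, under quantile normalization (12 of them among the 16 above), the authors' deposited table (16), flagged spots kept (16) and the median over a gene's probes (15), and was 20 with trend and robust settings (15). It was 154 (8 higher, 146 lower) with the 75th percentile over probes detected on all arrays, which moved the median of all features to -0.14, and 29 (1 higher, 28 lower) with median centring, which moved it to 0.16. It was 9, all lower, with normexp (6 shared with the 16), 6, all lower, among features above background on all 6 arrays, 31 (3 higher, 28 lower, 13 shared) with the 6 arrays alone and 1, lower, with named genes alone. No feature passed without a filter on dim probes (0 of 49222, with 3842 at an unadjusted p under 0.05) or with slide as a block, which leaves out diploid clone 1 (0, with 2857). Leaving out 1 clone at a time gave 0 to 61 calls (0 to 7 higher and 0 to 54 lower), 0 of them without diploid clone 1 or triploid clone 2 and 61 without triploid clone 1. With the clone numbers as a replicate block 0 features passed, with 3122 at an unadjusted p under 0.05. Same-numbered clones deviated together only weakly (correlations of 0.02, 0.04 and 0.10), against -0.07 to 0.04 for other pairs. Such correlations cannot settle whether the numbers pair the clones, and the labels do not say.

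None of the 34 genes named for passing, for their p or for their bound changed direction in the settings that measured them. Since their clones did not overlap, settings that only left out a clone could not change it. The 6 named genes that passed did so in 8 to 15 of their 22 or 23 settings. Relative to all features, the medians of the cholesterol (0.28 to 0.61), cohesin (0.35 to 0.62), cytokinesis (0.20 to 0.41), unfolded protein (0.26 to 0.54) and delta-protocadherin (-0.66 to -0.27) lists kept their sign in 17 settings. Precision is limited by 3 clones per group with 1 array each, and genes near background have only bounds.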
